A study of Homo sapiens with 6 samples.

Results

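Janus kinases (JAKs) and the signal transducers and activators of transcription (STATs) form the 2 core layers of cytokine signaling. The members described here were chosen by gene symbol, with no measured value in the rule, but with earlier results of these data known. They were 9 of the 19330 genes in the table: the kinase genes JAK1, JAK2 and TYK2 and the factor genes STAT2, STAT3, STAT4, STAT5A, STAT5B and STAT6. The data were ribosome footprint counts from K562, a human chronic myelogenous leukemia cell line of erythroid character. Ribosome profiling sequences the mRNA stretches that ribosomes protect from nuclease, so that counts on a coding sequence (CDS) report ribosome occupancy, which follows the amount of mRNA as well as its translation. Both groups were pools of cells infected with a lentiviral CRISPR/Cas9 vector, selected for 48 h with puromycin and collected on day 10 after infection. Per the labels, the 3 sgCtrl libraries carried guides against olfactory receptor genes, and the 3 sgN6AMT1 libraries carried a guide against N6AMT1, a methyltransferase of translation release factor eRF1. Each library came from a separate lentiviral transduction.

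In the textbook pathway, a cytokine brings its receptor chains together, the JAKs bound to those chains phosphorylate each other and the receptor, and STATs dock on the receptor and are phosphorylated on a single tyrosine near their C terminus. Phosphorylated STATs pair and move to the nucleus, where they bind promoters, including those of the CISH and SOCS genes whose products shut the pathway off. K562 cells carry the BCR::ABL1 fusion kinase, which is known to activate STAT5 without a cytokine, and STAT5 and JAK2 also serve the erythropoietin receptor in red cell precursors.

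The tyrosine at which each protein is switched on sits in a short window of its CDS. These windows are shown because they mark the functional site shared by each family, and because the STAT5A and STAT5B pair is so alike there that it bears on how their footprints can be told apart. All are written 5′ to 3′ on the coding strand, from GENCODE release 44 on GRCh38, with the tyrosine codons in capitals; the JAKs have a pair of adjacent tyrosines in the activation loop, and the STATs have 1.
JAK1, tyrosine 1034, chr1:64837955-64837984, minus strand: accgataaggagTATTACaccgtcaaggat
JAK2, tyrosine 1007, chr9:5090859-5090888, plus strand: caagacaaagaaTACTATaaagtaaaagaa
TYK2, tyrosine 1054, chr19:10352949-10352978, minus strand: gaaggccacgagTACTACcgcgtgcgcgag
STAT2, tyrosine 690, chr12:56346163-56346192, minus strand: gaacggaggaaaTACctgaaacacaggctc
STAT3, tyrosine 705, across a splice junction: agcgctgccccaTACctgaagaccaagttt
STAT5A, tyrosine 694, chr17:42309052-42309081, plus strand: gctgttgatggaTATgtgaaaccacagatc
STAT5B, tyrosine 699, chr17:42202774-42202803, minus strand: gctgttgatggaTACgtgaagccacagatc
STAT6, tyrosine 641, chr12:57099032-57099061, minus strand: gatggcaggggtTATgtcccagctaccatc

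The STAT5A and STAT5B windows differed at 2 of 30 bases. Over their aligned CDS the pair was 89.0% identical, against 58.3% to 65.7% for the other pairs of STAT members. Of the 26-base windows in the STAT5A CDS, 31.9% were found letter for letter in STAT5B, and the longest identical run was 429 bases. That run starts in exon 6 with the same 30 bases in both genes, with no capitals because no base is singled out.
STAT5A, chr17:42299764-42299793, plus strand: gctggcccagctgagcccccaggagcgtct
STAT5B, chr17:42219800-42219829, minus strand: gctggcccagctgagcccccaggagcgtct
A footprint from such a stretch cannot be assigned to 1 of the pair, and how the authors' counting placed it is not given in the sources used here. No 26-base window of the other 7 members was found in another member.

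The libraries held 1821356 to 2969736 counts. Footprints on N6AMT1 itself numbered 25, 24 and 34 in sgCtrl, compared with 10, 9 and 8 in sgN6AMT1 (log2 fold change -1.51, SE 0.313, adjusted p = 6.69e-05), which follows the labels. N6AMT1 passed the count filter through its sgCtrl counts and would not have passed on sgN6AMT1 alone. The transcript counted for it has the GENCODE biotype nonsense-mediated decay. All 13 K562 markers had footprints, and 2 were called higher and 5 lower, beside 12.9% higher and 13.9% lower over all genes tested. Their summed level was 27720 to 29190 CPM (counts scaled to the size of each library) in sgCtrl and 28050 to 28960 CPM in sgN6AMT1. Most of that sum came from the globin genes HBG1, HBG2, HBE1 and HBZ, so it says little about the others. Picked out after its values were seen, LMO2 went from 79, 125 and 82 counts in sgCtrl to 25, 43 and 30 in sgN6AMT1. TAL1, picked out likewise, went from 88, 115 and 80 to 132, 123 and 112. So were GATA1, which went from 643, 870 and 623 to 545, 581 and 498, and KLF1, from 254, 335 and 256 to 199, 201 and 206. HBE1 went the other way, from 6925, 9840 and 7769 to 11471, 11526 and 9067. Among markers of other cell types, the 7 of monocytes and macrophages summed to 59.3 to 71.0 CPM in sgCtrl and 143.9 to 149.5 CPM in sgN6AMT1. Both of those that could be tested, LYZ and CD68, were higher, and CD14 was at 0 in all 6 libraries. The 6 epithelial markers summed to 408.9 to 423 CPM and 589 to 625 CPM, with KRT5 and CLDN4 at 0; of the 2 tested, KRT19 was called higher and EPCAM was not called. The part of these shifts in the results below was not tested.

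In sgN6AMT1, STAT5A footprints fell to 0.498 and STAT3 footprints to 0.764 of their sgCtrl level, and STAT6 footprints rose 2.08-fold. JAK2 was also called lower, with overlapping groups. JAK1, TYK2, STAT2 and STAT5B did not pass the test, and STAT4 had almost no footprints. Genes were compared with edgeR's quasi-likelihood test over 9202 genes with Benjamini-Hochberg adjustment and a threshold of 0.05, and log2 fold changes are sgN6AMT1 over sgCtrl. Of the 9 members, 8 passed the count filter, 1 was called higher and 3 lower. Over all genes tested, 12.9% were called higher, 13.9% lower and 26.9% in either direction. In 3 of the 8 members the groups did not overlap, as was the case in 37.5% of all genes tested. The members' median log2 fold change was -0.16, beside 0.01 over all genes tested.

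**Figure D1:**
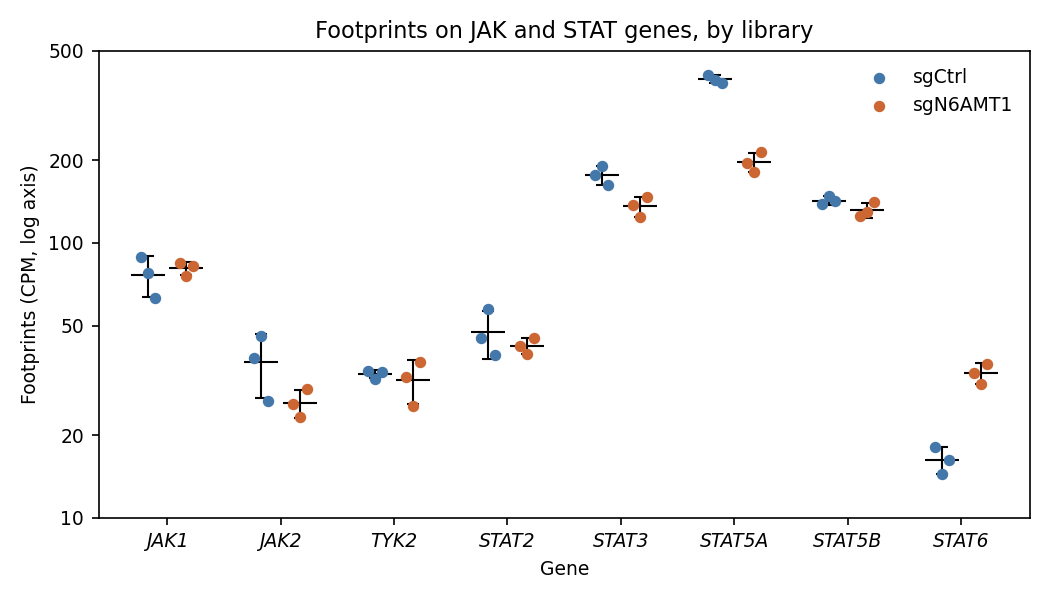
Footprints on the 8 members that passed the count filter (CPM, log axis), with 1 point per library, a horizontal bar at the group mean and whiskers of 1 SD (n = 3 per group). STAT5A and STAT3 have all sgN6AMT1 libraries below all sgCtrl libraries, STAT6 has them all above, and the other 5 members overlap.

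The kinases come first. JAK1 (chr1:64833229-64966549), which serves most cytokine receptors that signal through a shared subunit, had 88.9, 77.9 and 63.1 CPM in sgCtrl and 84.6, 76.0 and 82.5 CPM in sgN6AMT1. The sgN6AMT1 values all lay within the sgCtrl range, and the log2 fold change was 0.08 (95% interval -0.14 to 0.29, adjusted p = 0.644). TYK2 (chr19:10350533-10380608), the partner of JAK1 on interferon receptors, gathered 68, 93 and 69 counts in the sgCtrl libraries, compared with 74, 59 and 68 in the sgN6AMT1 libraries, or 33.4 ± 1.17 and 31.6 ± 5.76 CPM (SD, n = 3 per group). Its lowest and highest levels, 25.5 and 36.9 CPM, were both in sgN6AMT1 libraries, and its log2 fold change was -0.09 (95% interval -0.38 to 0.20, adjusted p = 0.707).

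JAK2 (chr9:4985272-5129948), the kinase of the erythropoietin and growth hormone receptors, had 38.2, 45.9 and 26.6 CPM in sgCtrl and 25.9, 23.3 and 29.3 CPM in sgN6AMT1. The groups overlapped, because sgCtrl replicate 3 lay below sgN6AMT1 replicate 3. The log2 fold change was -0.54 (SE 0.156, adjusted p = 0.00492). The call rested on single libraries: without sgCtrl replicate 2 the log2 fold change was -0.32 (adjusted p = 0.222), and without sgN6AMT1 replicate 2 it was -0.46 (adjusted p = 0.0616). DESeq2, which called 12.3% of the genes it tested, gave -0.52 for JAK2 (adjusted p = 0.134). JAK3, the kinase of the common gamma chain in lymphocytes, had 0 counts in all 6 libraries, which allows a level of up to 1.01 to 1.65 CPM in a library by counting error alone.

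Among the STATs, STAT5A (chr17:42288498-42311943), a mediator of erythropoietin, prolactin and BCR::ABL1 signals, gathered 812, 1137 and 776 counts in the sgCtrl libraries, compared with 447, 419 and 393 in the sgN6AMT1 libraries. This was 407.9, 392.0 and 382.6 CPM against 195.9, 181.0 and 213.3 CPM, with no overlap and a wide gap between the groups. The mean fell from 394 ± 12.8 to 197 ± 16.2 CPM (SD, n = 3 per group), a log2 fold change of -1.01 (SE 0.0638, adjusted p = 2.68e-25). It had the rank of 15 among the 9202 p-values, and of the 1282 genes called lower, 61 (4.76%) fell further.

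STAT5B (chr17:42199177-42276391), its near copy, lies beside it on the opposite strand. It had 138.1, 148.2 and 141.5 CPM in sgCtrl and 125.4, 129.2 and 141.1 CPM in sgN6AMT1. Only sgN6AMT1 replicate 3 reached into the sgCtrl range, and the log2 fold change was -0.12 (95% interval -0.28 to 0.04, adjusted p = 0.280). The ratio of STAT5A to STAT5B counts was 2.95, 2.64 and 2.70 in sgCtrl and 1.56, 1.40 and 1.51 in sgN6AMT1. With the counts of both genes summed, the log2 fold change was -0.71 (adjusted p = 2.99e-19). The sum does not depend on how reads from shared stretches were split between the pair. It would still depend on whether such reads were dropped or counted for both.

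STAT3 (chr17:42315491-42388482), the factor of the interleukin-6 family and the next gene along this stretch of chromosome 17, had 176.3, 190.3 and 162.7 CPM in sgCtrl and 137.6, 124.0 and 146.6 CPM in sgN6AMT1. The groups did not overlap. The log2 fold change was -0.39 (SE 0.0786, adjusted p = 4.62e-05), and 615 of the 1282 genes called lower (48.0%) fell further. Within 500 kb of STAT5A, leaving out the members STAT5B and STAT3, 24 tested genes had 5 calls higher and 3 lower, with a median log2 fold change of 0.06.

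STAT6 (chr12:57096365-57111374), the factor of interleukin-4 and interleukin-13, gathered 36, 42 and 33 counts in the sgCtrl libraries, compared with 77, 71 and 67 in the sgN6AMT1 libraries. These were 18.1, 14.5 and 16.3 CPM against 33.8, 30.7 and 36.4 CPM, and every sgN6AMT1 library lay above every sgCtrl library. The mean rose from 16.3 ± 1.80 to 33.6 ± 2.85 CPM (SD, n = 3 per group), a log2 fold change of 1.05 (SE 0.172, adjusted p = 4.79e-07). Of the 1191 genes called higher, 196 (16.5%) rose further. Within 500 kb of STAT6, leaving out any other member, 17 tested genes had 3 calls higher and 3 lower, with a median of -0.02.

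STAT2 (chr12:56341597-56360107), a subunit of the interferon-activated complex ISGF3, had 45.2, 57.6 and 38.9 CPM in sgCtrl and 42.1, 39.3 and 45.1 CPM in sgN6AMT1. The sgN6AMT1 values lay inside the sgCtrl range, and the log2 fold change was -0.20 (95% interval -0.46 to 0.05, adjusted p = 0.255). STAT4 (chr2:191029576-191150994), the interleukin-12 factor of T and natural killer cells, had 0 counts in all 3 sgCtrl libraries and 0, 3 and 1 in sgN6AMT1. It did not reach the count filter, and 0 counts in the sgCtrl libraries together allow up to 0.424 CPM.

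**Figure D2:**
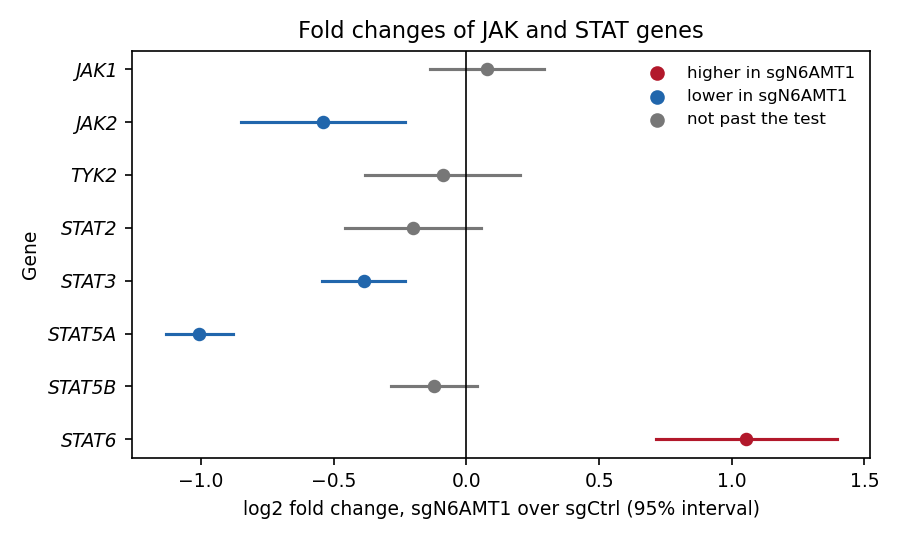
Log2 fold change of each tested member, sgN6AMT1 over sgCtrl, with its 95% interval from edgeR. STAT5A at -1.01 and STAT6 at 1.05 lie farthest from 0 in opposite directions, and the intervals of JAK1, TYK2, STAT2 and STAT5B include 0.

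To rank the members by level, CPM were divided by CDS length. In sgCtrl, STAT5A led at 165 CPM per kb, followed by STAT3 at 76.3, STAT5B at 60.3, JAK1 at 22.1, STAT2 at 18.5, JAK2 at 10.9, TYK2 at 9.37 and STAT6 at 6.40 CPM per kb. In sgN6AMT1, STAT5A stood at 82.5 CPM per kb, STAT3 at 58.8 and STAT5B at 55.8, followed by JAK1 at 23.4, STAT2 at 16.5, STAT6 at 13.2, TYK2 at 8.87 and JAK2 at 7.70 CPM per kb. STAT6 thus moved from the last place among the tested members to a place above TYK2 and JAK2. The TYK2 level used the CDS length of its MANE transcript, since the transcript listed for it had no match in the annotation.

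The make-up of the STAT footprints, not scaled to CDS length, shifted with these changes. STAT5A took 51.9%, 48.8% and 51.6% of the footprints on the 6 STAT members in sgCtrl and 36.6%, 35.8% and 36.6% in sgN6AMT1. STAT6 took 2.30%, 1.80% and 2.19% against 6.31%, 6.07% and 6.24%. The total over the 6 STAT members was 776.7 ± 31.3 CPM in sgCtrl and 541.1 ± 39.2 CPM in sgN6AMT1 (SD, n = 3 per group), while the 3 kinases together had 146.9 ± 20.3 and 138.8 ± 12.5 CPM. Since shares are parts of the same total within a library, a lower STAT5A share raises the others, so the STAT5B mean share of 18.4% and then 24.4% goes with a level that did not pass the test.

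**Figure D3:**
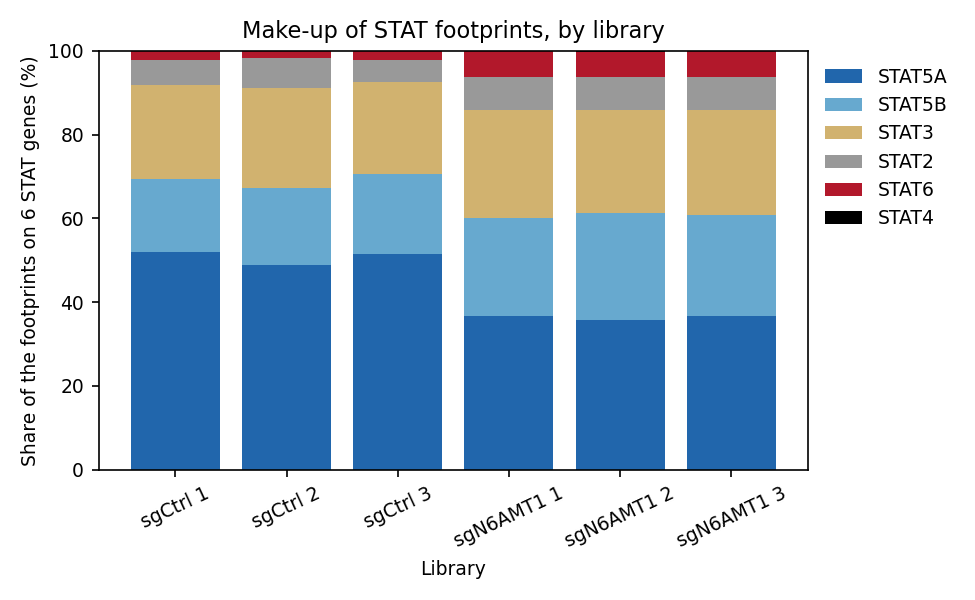
Share of the footprints on 6 STAT genes taken by each, in percent, with 1 bar per library. The STAT5A part is near 50% in each sgCtrl library and near 36% in each sgN6AMT1 library, the STAT6 part grows from about 2% to about 6%, and STAT4 is too small to see.

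The lists of pathway genes below share some genes, among them IL6ST, CISH, SOCS1, SOCS2, PIM1 and ICAM1, so their counts are not independent. They were also chosen with earlier results of these data known, which limits each comparison with all genes tested. The receptors upstream of the kinases were thinly covered. Of 40 cytokine receptor genes, 16 could be tested, 6 were called higher and 2 lower, beside 12.9% and 13.9% over all genes tested. The median log2 fold change was 0.53 beside 0.01 over all genes tested. The 6 include OSMR and IL10RA, picked out after their values were seen and under a mean of 10 CPM. OSMR went from 6, 12 and 5 counts in sgCtrl to 17, 17 and 12 in sgN6AMT1. IL10RA went from 2, 8 and 4 to 24, 19 and 26. Both, and the uncalled IL23R, passed the count filter through sgN6AMT1 alone, which bears on the calls and the median. LIFR, called higher with 16, 28 and 7 counts in sgCtrl, would not have passed on sgCtrl alone. Nor would IL15RA and IFNGR2, which were not called. IL6ST, the gp130 chain that signals through JAK1 and STAT3, went from 40, 71 and 34 counts in sgCtrl to 90, 81 and 59 in sgN6AMT1 and rose by a log2 fold change of 0.77 (SE 0.160, adjusted p = 7.23e-05). IL13RA1, a chain of the interleukin-13 receptor that feeds STAT6, rose by 0.86, IFNGR1, the ligand-binding chain of the interferon gamma receptor, by 0.57, and LIFR, the partner of gp130, by 0.84 on the log2 scale. The LIFR call was lost without sgCtrl replicate 3 (0.55, adjusted p = 0.140) or sgN6AMT1 replicate 2 (0.75, adjusted p = 0.0831). IL27RA fell by 0.57 on the log2 scale, a call lost without sgCtrl replicate 2 (-0.49, adjusted p = 0.0613). The leptin receptor gene LEPR, which shares exons with LEPROT, fell by 0.27, with overlapping groups and a call lost without sgN6AMT1 replicate 2 (-0.22, adjusted p = 0.0521). In DESeq2 the adjusted p was 0.0527 for IFNGR1, 0.153 for LIFR and 0.111 for IL27RA.

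EPOR, the erythropoietin receptor that signals through JAK2 and STAT5, gathered 23, 30 and 27 counts in sgCtrl, compared with 14, 17 and 19 in sgN6AMT1. Its log2 fold change was -0.57 (SE 0.267, adjusted p = 0.105), which passed the threshold only without sgN6AMT1 replicate 3 (-0.78, adjusted p = 0.0484). The interferon receptor genes IFNAR1, IFNAR2 and IFNGR2 had log2 fold changes of -0.13, 0.49 and 0.14 and did not pass the test. All 3 lie on chromosome 21, as N6AMT1 does, where 86 tested genes had a median of -0.26, with 37 called lower and 2 higher. CSF2RB, the shared chain of the interleukin-3 receptor, had 1 count in sgCtrl and 2 in sgN6AMT1. Of 34 cytokine ligand genes, none reached the count filter and 24 had 0 counts in all 6 libraries. Among these were IFNA1, IFNA2, IFNA8 and IFNB1. The paper states that a large stretch of the genome with the interferon gene locus is missing from K562 cells. It also states that interferon signaling could not be studied in them. In N6AMT1-depleted HeLa cells it reports higher transcripts of IFNB1, USP18, IFIT1 and GBP2 by qPCR.

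Of 23 inhibitor genes, 18 were tested, with a median log2 fold change of 0.15. Of these, 6 were called higher and 1 lower, beside 12.9% and 13.9% over all genes tested, and 11 did not pass the test. CISH, a STAT5-induced inhibitor, went from 117, 163 and 114 counts in sgCtrl to 309, 334 and 280 in sgN6AMT1 (log2 fold change 1.33, SE 0.0965, adjusted p = 8.00e-22). SOCS1, which blocks JAK kinase activity, went from 12, 14 and 13 counts to 75, 78 and 64 (log2 fold change 2.57, SE 0.219, adjusted p = 8.92e-18). SOCS2 rose by 0.95 and the receptor phosphatase gene PTPRC (CD45) by 0.61 on the log2 scale, both without overlap of the groups. PTPN2, a phosphatase of JAK1 and STAT proteins, fell by 0.47 with overlapping groups, and its call was lost without sgCtrl replicate 2 (adjusted p = 0.0815), sgCtrl replicate 3 (adjusted p = 0.125) or sgN6AMT1 replicate 1 (adjusted p = 0.154), and in DESeq2 (adjusted p = 0.182).

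Of 20 adaptor and coactivator genes, 15 were tested, with a median of 0.07. Of these, 4 were called higher and 4 lower, beside 12.9% and 13.9% over all genes tested. The docking protein genes GAB2 and GAB1 went opposite ways, GAB2 with a log2 fold change of 0.90 (adjusted p = 1.49e-05) and GAB1 with -1.07 (adjusted p = 0.000193). KPNA1, an importin that carries phosphorylated STATs into the nucleus, rose by 0.40 on the log2 scale, and HSP90AB1, a chaperone of JAK kinases, fell by 0.17. The calls of the remaining named adaptors each depended on single libraries. SHC1 (0.40, adjusted p = 0.0307) had adjusted p of 0.0516 to 0.261 without each library in turn other than sgN6AMT1 replicate 1, 0.248 in DESeq2 and 0.0568 with CDS length and GC trends removed. STAM (0.28, adjusted p = 0.0413) had adjusted p of 0.174 and 0.0678 without sgCtrl replicates 1 and 2, and 0.150 and 0.0797 without sgN6AMT1 replicates 1 and 2. KPNA3 (-0.35, adjusted p = 0.0139) had 0.153 without sgCtrl replicate 2 and 0.0928 without sgN6AMT1 replicate 3. In DESeq2 the adjusted p was 0.243 for STAM and 0.127 for KPNA3, and STAM had 0.0659 with no filter on low counts.

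Downstream, genes listed as STAT5 targets included 15 tested, with a median log2 fold change of 0.25. Of these, 7 were called higher and 2 lower, beside 12.9% and 13.9% over all genes tested. ALAS2, the erythroid enzyme of heme synthesis, rose by 1.68 (SE 0.0985, adjusted p = 1.59e-27) and the kinase gene PIM1 by 0.84 (SE 0.0623, adjusted p = 3.31e-21) on the log2 scale, beside CISH and SOCS2 above. The transferrin receptor gene TFRC fell by 0.33 (SE 0.0443, adjusted p = 1.49e-09). CCND1, the cyclin D1 gene, lay under the level set for naming and was picked out after its values were seen. It also fell, from 19, 36 and 28 counts to 9, 6 and 11, a log2 fold change of -1.55 (adjusted p = 3.9e-05). CCND1 passed the count filter through its sgCtrl counts and would not have passed on sgN6AMT1 alone.

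Of 14 tested STAT3 targets, 10 were called higher and 0 lower, beside 12.9% and 13.9% over all genes tested, with a median of 0.54. Besides PIM1 and IL6ST these included TIMP1, an inhibitor of metalloproteinases, at a log2 fold change of 0.49, the adhesion receptor gene ICAM1 at 0.98 and the early response gene IER3 at 1.51. At an unadjusted p under 0.05, 0 were lower in edgeR, and DESeq2 and limma-voom also called 0 lower.

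Of 16 tested ISGF3 targets, 7 were called higher and 0 lower by edgeR, beside 12.9% and 13.9% over all genes tested. The median was 0.24. At an unadjusted p under 0.05, 1 was lower, IFITM1, and DESeq2 and limma-voom called 0 lower. BST2, the tetherin gene, went from 323, 472 and 324 counts in sgCtrl to 641, 623 and 479 in sgN6AMT1 (log2 fold change 0.74, SE 0.0676, adjusted p = 2.78e-16). IFITM2 rose by 0.39, PLSCR1 by 0.37 and CMPK2 by 0.58 on the log2 scale. IFITM2 lost its call without sgN6AMT1 replicate 2 (adjusted p = 0.0559), and CMPK2 without sgCtrl replicate 2 (adjusted p = 0.270) or sgN6AMT1 replicate 2 (adjusted p = 0.115). In DESeq2 the adjusted p was 0.0578 for IFITM2, 0.0757 for PLSCR1 and 0.219 for CMPK2. IFIT1, OAS1 and MX2, classical members of this list picked out after their values were seen, had at most 2 counts in any library.

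Of 15 tested interferon gamma response genes, 10 were called higher and 1 lower, beside 12.9% and 13.9% over all genes tested. The median was 0.72. B2M, the light chain of MHC class I, rose by 0.84 (SE 0.0527, adjusted p = 1.69e-25), beside SOCS1 and ICAM1 above. FCGR1A, the high-affinity IgG receptor gene of myeloid cells, went from 3, 0 and 2 counts in sgCtrl to 52, 39 and 39 in sgN6AMT1. It passed the count filter, and is among the 10, through sgN6AMT1 alone. Its near-identical copy FCGR1B moved with it, is also among the 10, and likewise had almost no sgCtrl footprints. Reads may be shared between them, so their calls are not independent, which bears on the 10 and on the median. TAP2, a peptide transporter subunit, fell by 0.51 on the log2 scale (SE 0.142, adjusted p = 0.00335). TAP2 had an adjusted p of 0.0669 in DESeq2. Removal of trends on CDS length and GC could be run on 10 of the 15 genes, since 5 had no matched CDS length, TAP2 and B2M among them; among those 10, 6 were called higher before it and 5 after it.

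**Figure D4:**
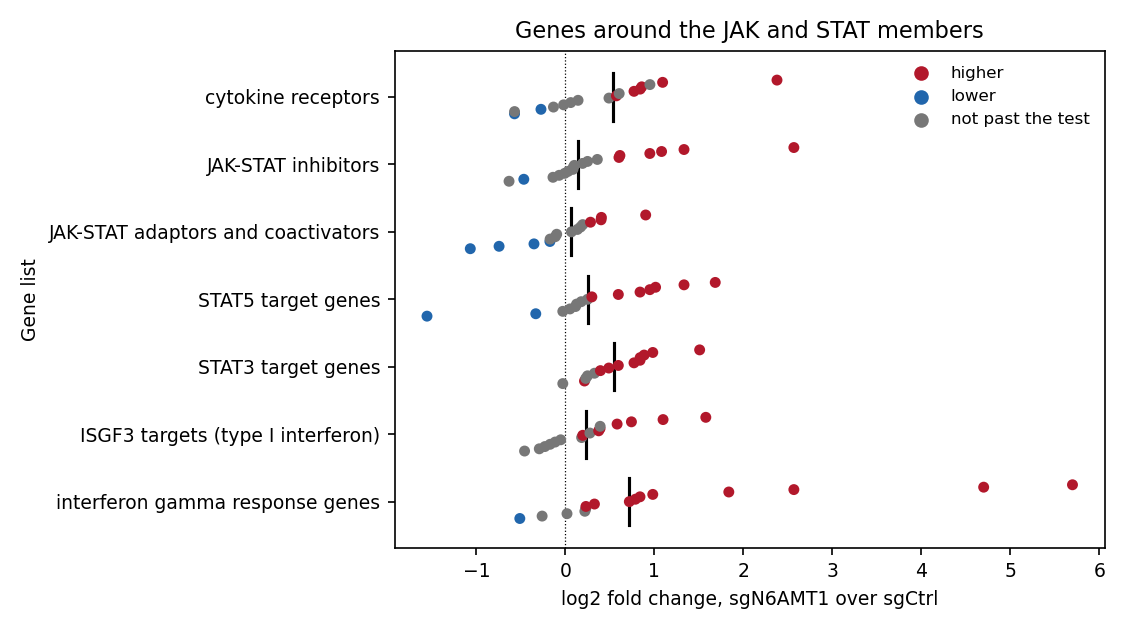
Log2 fold change, sgN6AMT1 over sgCtrl, of every tested gene in 7 lists of pathway genes, with 1 point per gene colored by its edgeR call and a black bar at each list's median. Medians run from 0.07 for the adaptors to 0.72 for the interferon gamma response genes; the 2 points beyond 4 are FCGR1A and FCGR1B, which had almost no sgCtrl footprints, so that their fitted values depend on the prior count.

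Over the 6 libraries, the genes whose mean-centered log2 CPM lay closest to each called member, among 7803 compared, were SLC4A2 and FADS1 for STAT5A, PIWIL4 and MLLT1 for STAT3, E2F5 and KLHL26 for JAK2, and the cathepsin genes CTSD and CTSB for STAT6. The root mean square difference on the log2 scale was 0.0546 for SLC4A2 and 0.0761 for CTSD. It was larger for the JAK2 pair, at 0.098 for E2F5 and 0.1 for KLHL26. Neither of that pair passed the edgeR test itself (adjusted p = 0.196 and 0.121).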

How the data were processed

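The deposited table held whole-number footprint counts per transcript, 1 transcript per gene, for 6 libraries, and was neither normalized nor pooled. The authors trimmed adapters with cutadapt, mapped the reads to GRCh38, removed rRNA and tRNA reads, and mapped the rest to canonical transcripts with Bowtie2. They counted both ribosomal P-sites on the CDS and overlaps with a gene annotation, and which of these the counts are is not given in the sources used here. The study's RNA sequencing was not used here. No molecular identifiers are described, and limits for 0 counts cover counting error only. The intervals of fold changes are from the edgeR fit and include the spread between libraries.

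The test was run in edgeR 4.0.16 under R 4.3.3 (filterByExpr, minimum count 10; TMM factors; robust quasi-likelihood F test, 2-sided; no covariate), on 9202 genes. The filter dropped 10128 genes, with 0.465% of the counts. CPM use TMM-adjusted library sizes. DESeq2 1.42.0, which the study used, and limma 3.58.1 (voom) were alternatives, with other factors and filters, trends on CDS length and GC content removed (loess, span 0.5), a replicate block, STAT5A and STAT5B summed, and each library left out in turn. Simulated data held 9182 tested genes, of which 99 were changed up or down by 0.5 and 99 by 1 on the log2 scale. There edgeR recovered 56.6% of changes of 0.5 and 97.0% of changes of 1, and 6.17% of its calls were false. In the data themselves 26.9% of genes were called, a far larger share than was changed there, so these rates need not hold for them.

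The members and the lists of pathway and marker genes were chosen with earlier results of these data known. The text names the members, JAK3, N6AMT1, 7 receptors, up to 4 called genes per list and direction whose mean reached 10 CPM, and the 2 genes most like each called member; 1 further gene that the naming rule covers is not reported here. Locations are from GENCODE release 44, which held 91.5% of the transcripts; TYK2 was placed by symbol. The labels do not say which control guide went into which sgCtrl library.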

Additional observations from a re-analysis of the deposited data

How the results depend on the processing

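The calls of STAT3, STAT5A and STAT6 kept their direction and their side of the threshold under each of 16 alternatives, at log2 fold changes of -0.44 to -0.32, -1.07 to -0.95 (-0.71 for STAT5A and STAT5B summed) and 0.96 to 1.13. Over 44 named genes, 646 of 687 pairs of a gene and an alternative gave the same call, 37 lost it, 1 gained it and 3 changed sign. The sign changes were in genes that did not pass the test: leaving out each library in turn, the log2 fold change of JAK1 ran from -0.035 (without sgCtrl replicate 3) to 0.179, of IFNGR2 from -0.020 (without sgCtrl replicate 3) to 0.278, and of TYK2 from -0.204 to 0.051 (without sgN6AMT1 replicate 2). The causes were not tested.

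DESeq2 called 1324 genes, 585 higher and 739 lower, against 2473, 1191 and 1282 with edgeR. Total counts without factors put 38.5% of calls on the lower side, against 51.8%. In the lists, DESeq2 called 3 receptors higher and 1 lower, 0 inhibitors lower, 2 adaptors higher and 2 lower, 2 ISGF3 targets higher and 0 interferon gamma response genes lower. With a mean of at least 50 counts, which tests fewer genes, 3 receptors, 3 inhibitors, 4 ISGF3 targets and 6 interferon gamma response genes were higher, and 2 adaptors and 1 STAT5 target were lower. With CDS length and GC trends removed, which tests only genes with a matched CDS length, 2 ISGF3 targets were lower. Of the interferon gamma response genes, 5 were then higher and 0 lower, but 4 of the 10 called higher and the 1 called lower had no CDS length and were not tested. With no filter on low counts, 1 ISGF3 target was lower. Leaving out each library in turn gave 1 to 3 receptors lower (1 without sgCtrl or sgN6AMT1 replicate 2), 0 to 1 inhibitors lower (0 without sgCtrl replicate 2 or 3 or sgN6AMT1 replicate 1), 2 to 4 adaptors higher (2 without sgCtrl replicate 1 or 2 or sgN6AMT1 replicate 2) and 2 to 4 adaptors lower (2 without sgCtrl replicate 2 or sgN6AMT1 replicate 3).

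The counts gave no sign that the replicate numbers pair the samples, which does not show how the libraries were prepared. Deviations of same-numbered libraries correlated at -0.061, 0.020 and 0.016, and those of differently numbered libraries at -0.080 to 0.064. With the replicate block the log2 fold change of STAT5A was -1.01, of STAT6 1.04 and of JAK2 -0.53, and it changed no call of a member.

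JAK2 had 54 to 133 counts per library and STAT6 33 to 77, so that their intervals are wider than that of STAT5A. STAT4 and the ligands had too few counts to be tested.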
